A study of Mus musculus with 27 samples.

Results

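The genes that specify and mark primordial germ cells (PGCs) were followed in RNA-Seq of whole E8.5 mouse embryos with and without a functional Dnmt3b gene. They comprise 10 genes chosen by name, Prdm1, Prdm14, Tfap2c, Nanos3, Dnd1, Kit, Kitl, Alpl, Ifitm1 and Ifitm3, and all 10 were found among the 24065 genes of the count table. The study compared WT embryos with Dnmt3b-/- littermates, 3 embryos of each genotype with 1 library per embryo and no pooling, on a C57BL/6 background after natural mating. The Dnmt3b-/- embryos came from heterozygous parents and carried a catalytically inactive allele, made by deleting a floxed Dnmt3b-2lox segment with the ubiquitous ACTB-Cre line, so the mutation was present in every cell from the start of development. No further agent or allele was listed for either genotype, and the litter and sex of each embryo were not given. The comparison addresses whether the transcripts of germ cell genes seen in these embryos come with matching levels of the genes that found and mark the germ cell lineage.

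PGCs, the precursors of eggs and sperm, are set aside in the early mouse embryo when bone morphogenetic protein (BMP) and WNT signals act on a few epiblast cells. The transcriptional regulators Prdm1, Prdm14 and Tfap2c then repress the somatic programme, and the RNA-binding proteins Nanos3 and Dnd1 keep the cells alive. At E8.5 the PGCs are few and leave the base of the allantois through the hindgut, guided and sustained by Kit ligand, and they can be recognized by tissue non-specific alkaline phosphatase (the product of Alpl) and by Ifitm surface proteins. Late germline genes such as Ddx4 and Dazl are normally switched on only after the cells have reached the gonads.

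Promoter sequences of the PGC genes were described beside those of the later germline transcripts whose levels are compared with theirs below. Windows reaching from 250 bases upstream of the transcription start to 50 bases downstream (RefSeq, GRCm38.p6, the assembly of mm10) were at hand for 7 of the 10 PGC genes and for all 10 genes of a list of later germline transcripts. The CpG dinucleotide, the target of DNMT3B, occurred 3 times in the Nanos3 window, 5 times each in those of Ifitm1 and Ifitm3, 20 times for Prdm1, 20 and 21 times for the pair of Kit starts, 28 times for Kitl and 26 and 4 times for the pair of Alpl starts. The PGC windows therefore ranged from CpG-poor to CpG-rich, with a median of 20 CpGs over 9 windows. The 13 windows of later germline transcripts ranged from 3 to 38 CpGs with a similar median of 23, and the median over all 32851 promoters was 7. The 250 bases upstream of the start are shown for 2 CpG-poor PGC genes, the germ-cell-restricted Nanos3 (chr8:84176553-84176802, minus strand) and Ifitm3 (chr7:141010745-141010994, minus strand). Beside them stand the same bases of 2 later germline genes with large changes, Sycp1 (chr3:102936101-102936350, minus strand), which encodes a synaptonemal complex protein, and Mael (chr1:166238745-166238994, minus strand), which encodes a piRNA pathway factor. Every CpG is in capitals.
Nanos3: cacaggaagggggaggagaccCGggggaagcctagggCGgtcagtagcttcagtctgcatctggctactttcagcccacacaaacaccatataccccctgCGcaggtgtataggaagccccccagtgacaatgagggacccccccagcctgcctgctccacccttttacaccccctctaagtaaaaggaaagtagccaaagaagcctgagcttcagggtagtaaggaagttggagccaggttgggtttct
Ifitm3: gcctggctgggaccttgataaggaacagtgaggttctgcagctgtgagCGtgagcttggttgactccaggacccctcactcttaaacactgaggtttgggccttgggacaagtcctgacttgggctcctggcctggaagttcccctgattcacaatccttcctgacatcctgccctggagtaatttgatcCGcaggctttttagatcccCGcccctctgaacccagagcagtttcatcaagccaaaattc
Sycp1: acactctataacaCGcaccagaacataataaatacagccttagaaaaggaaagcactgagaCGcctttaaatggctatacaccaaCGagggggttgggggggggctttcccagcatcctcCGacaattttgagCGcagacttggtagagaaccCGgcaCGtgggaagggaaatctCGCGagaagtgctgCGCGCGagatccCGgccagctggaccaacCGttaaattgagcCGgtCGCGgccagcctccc
Mael: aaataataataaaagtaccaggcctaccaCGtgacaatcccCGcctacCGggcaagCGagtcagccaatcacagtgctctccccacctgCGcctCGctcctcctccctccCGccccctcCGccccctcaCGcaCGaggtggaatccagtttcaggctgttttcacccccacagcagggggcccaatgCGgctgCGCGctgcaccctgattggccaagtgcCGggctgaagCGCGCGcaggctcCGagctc
These stretches hold 3 CpGs in Nanos3, 3 in Ifitm3, 17 in Sycp1 and 18 in Mael. A pair of motifs known from germline gene promoters was searched on both strands of the whole windows. The E-box CACGTG was found in 0 of the 7 PGC genes with a window and in 8 of the 10 later germline genes, against 7.15% of all promoters. The E2F6 core TCCCGC was found in 2 of the 7 PGC genes, Kit and Kitl, and in 6 of the 10 later germline genes, against 20% of all promoters. These matches describe the letters of the windows and say nothing of binding.

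The libraries held 41489332 to 58470286 counts per embryo. Values are given as normalized counts, the raw counts scaled to the average library with edgeR's TMM factors, and 3 raw counts correspond to 2.38 to 3.5 normalized counts. A gene was tested when its mean over the 6 embryos was at least 10 counts, and was called changed at an adjusted p below 0.05 (edgeR's quasi-likelihood test, Benjamini-Hochberg over 15114 genes). Dnmt3b itself read 7287, 14003 and 6301 normalized counts in WT against 4076, 4557 and 4756 in Dnmt3b-/- embryos, with a log2 change of -1.04 ± 0.27 (SE, adjusted p = 0.0169) over all its exons, including those outside the deleted segment. Without WT embryo 2 the change was -0.61 (adjusted p = 0.0026). Single embryos stood apart in genes of other tissues and in Pou5f1, a pluripotency gene shared with PGCs. WT embryo 2 had 839 normalized counts of Pou5f1 against 71.3 and 69.0 in the other WT embryos, and its summed level of 9 extraembryonic endoderm markers was 1120 FPKM (fragments scaled to exon length and library size) against 374 and 175. It also had 162 normalized counts of the neural crest gene Sox10 against 933 and 1090.3. Dnmt3b-/- embryo 3 gave the highest value of the 6 embryos for 5 of the 10 PGC genes, Prdm14, Tfap2c, Kitl, Ifitm1 and Ifitm3, and the lowest for Nanos3 and Dnd1. Results were therefore recomputed without these 2 embryos. The effect of tissue composition on the levels of the PGC genes was not tested.

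Of the 10 PGC genes, 8 passed the filter and 1 of these, Ifitm3, rose in Dnmt3b-/- embryos, while none fell. Across all tested genes, 35.7% were called, 17.6% higher and 18.1% lower in Dnmt3b-/- embryos. The count of 0 lower genes in edgeR's quasi-likelihood test became 1 at an unadjusted p below 0.05, namely Alpl, and was again 0 with DESeq2 and with limma. The log2 fold changes of the 7 tested genes that were not called lay between -0.24 and 0.24, and the median of all 8 was 0.07, beside -0.03 for all tested genes. For 6 of the 8, Prdm1, Tfap2c, Kit, Kitl, Alpl and Ifitm1, the 95% interval stayed below a 2-fold rise. With the GC and length correction this held for 5 of them, without Tfap2c. Since each library came from a whole embryo, fewer cells of a type and less RNA per cell cannot be told apart.

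**Figure D1:**
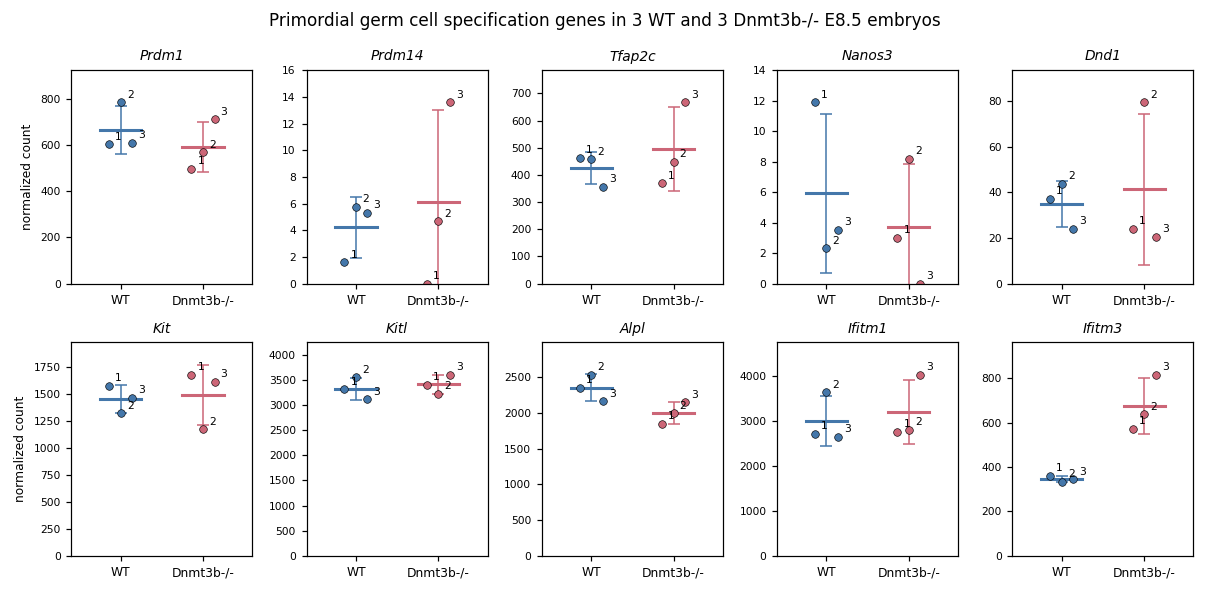
Normalized counts (y axes, each starting at 0) of the 10 PGC genes in 3 WT (blue) and 3 Dnmt3b-/- embryos (red). Points are single embryos labelled with their replicate number, the wide bars are means and the error bars SDs. The genotypes overlap for 8 genes and are separate for Alpl and Ifitm3.

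Among the transcriptional regulators, Prdm1 encodes a SET-domain repressor that starts the germ cell programme and is also used in endoderm, limb and pharyngeal tissue. Its gene lies at chr10:44437174-44528558 on the minus strand (mm10, as are all positions given). Prdm1 read 604, 787 and 612 normalized counts in WT embryos 1 to 3 and 498, 569.6 and 713 in the Dnmt3b-/- embryos. WT embryo 2 was the highest and Dnmt3b-/- embryo 1 the lowest, and the genotypes overlapped. The means were 667 ± 103 (SD, n = 3) and 593.5 ± 109, with a log2 fold change of -0.17 ± 0.17 (SE, adjusted p = 0.484 in edgeR's quasi-likelihood test) and a 95% interval from -0.56 to 0.23.

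Tfap2c (chr2:172545678-172558622, plus strand) encodes the AP-2γ transcription factor, which acts downstream of Prdm1 in germ cells and also in trophoblast and surface ectoderm. It read 463, 458 and 357 normalized counts in WT embryos and 369.8, 449 and 668 in Dnmt3b-/- embryos. Only Dnmt3b-/- embryo 3 lay above the WT range, the other Dnmt3b-/- values falling inside it. The log2 fold change of 0.22 ± 0.23 (SE) was not called (adjusted p = 0.493, edgeR's quasi-likelihood test). Without Dnmt3b-/- embryo 3 it was -0.04, and without WT embryo 2 it was 0.27, so the direction rested on Dnmt3b-/- embryo 3.

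Prdm14 (chr1:13113428-13127163, minus strand), the regulator of pluripotency and epigenetic reprogramming in PGCs, was near the floor of detection. The raw counts were 2, 5 and 6 in WT against 0, 4 and 12 in Dnmt3b-/- embryos, or 13 reads against 16 over the genotypes. Dnmt3b-/- embryos held both the lowest and the highest value, so the WT range lay inside theirs. Prdm14 did not reach the count minimum, and a fit without the filter gave a 95% interval from -2.29 to 3.32 on the log2 scale. Without Dnmt3b-/- embryo 3 the sign turned, to -0.84. A change of several fold in either direction was not detectable at this depth.

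The RNA-binding proteins were also low. Nanos3 (chr8:84173733-84176552, minus strand) prevents the death of migrating PGCs, and its transcript is largely restricted to the lineage. Its raw counts were 15, 2 and 4 in WT against 3, 7 and 0 in Dnmt3b-/- embryos, 21 reads in all against 10. WT embryo 1 alone supplied most of the WT reads, and the other 5 embryos overlapped. The fit without the filter gave -0.69 with a 95% interval from -3.43 to 2.04, and the value was 0.31 without WT embryo 1. The 0 of Dnmt3b-/- embryo 3 allows up to 3.4 normalized counts.

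Dnd1, which protects germ cell messages from microRNAs and acts together with the Nanos proteins, read 37.2, 43.6 and 23.9 normalized counts in WT embryos and 24.1, 79.4 and 20.4 in Dnmt3b-/- embryos. Dnmt3b-/- embryo 2 was the highest, and the other Dnmt3b-/- embryos lay close to or below the lowest WT embryo. The log2 fold change was 0.24 ± 0.58 (SE, adjusted p = 0.78, edgeR's quasi-likelihood test), with an interval from -1.10 to 1.58 that includes a 2-fold rise. Without Dnmt3b-/- embryo 2 the value was -0.64 (adjusted p = 0.357). The high embryo for Dnd1 was not the high embryo for Prdm14, Tfap2c or Nanos3. The annotated exons of Dnd1 share 38 bases with those of Wdr55 on the opposite strand, and the strand setting of the counting was not given in the sources used here.

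Kit signalling was carried by well-expressed transcripts. Kit (chr5:75574987-75656722, plus strand) encodes the receptor tyrosine kinase found on PGCs, melanoblasts and blood progenitors. It read 1577, 1324 and 1469 normalized counts in WT embryos and 1683, 1174 and 1616 in Dnmt3b-/- embryos. The Dnmt3b-/- values spanned the whole WT range, with embryo 1 the highest and embryo 2 the lowest of all. The log2 fold change was 0.03 ± 0.15 (SE, adjusted p = 0.88, edgeR's quasi-likelihood test), within an interval from -0.30 to 0.37, and its sign turned in several alternative fits.

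Kitl (chr10:100015615-100100416, plus strand), the ligand made by the somatic cells around the PGCs, had the narrowest interval of the 8 tested genes. It read 3311, 3556 and 3114 normalized counts in WT embryos and 3409, 3220.2 and 3609 in Dnmt3b-/- embryos. The genotypes overlapped, with means of 3327 ± 221 (SD, n = 3) and 3413 ± 194. The log2 fold change was 0.04 ± 0.08 (SE, adjusted p = 0.745, edgeR's quasi-likelihood test), between -0.14 and 0.22. The exons of Kitl are 38.3% GC against a median of 50.3% for all tested genes, and genes called higher and lower had medians of 45% and 55.7%. With an added correction for GC content and length, Kitl was called lower at -0.52 (adjusted p = 0.00279).

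Alpl (chr4:137741731-137796384, minus strand), the alkaline phosphatase whose activity is the classical PGC stain but which neural and other tissues also express, read 2358, 2541 and 2168 normalized counts in WT embryos and 1849.8, 2000.5 and 2152 in Dnmt3b-/- embryos. Every Dnmt3b-/- embryo lay below every WT embryo, by the smallest of margins between Dnmt3b-/- embryo 3 and WT embryo 3. Alpl and Ifitm3 were the 2 PGC genes without overlap between genotypes, against 51.8% of all tested genes. The means were 2356 ± 186 (SD, n = 3) and 2001 ± 151, with a log2 fold change of -0.24 ± 0.10 (SE) that was not called (adjusted p = 0.0927, edgeR's quasi-likelihood test). Scaling by total counts turned this into a call (-0.31, adjusted p = 0.0261), whereas the GC and length correction turned the sign (0.20, adjusted p = 0.332). An exact permutation test of 3 against 3 embryos cannot go below p = 0.1.

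The Ifitm genes encode small membrane proteins, known as interferon-induced antiviral factors and, for Ifitm1 and Ifitm3 (also called Fragilis), as surface markers of emerging PGCs. Ifitm3 (chr7:141009590-141010744, minus strand) was the single PGC gene that rose. It read 359.7, 334 and 344 normalized counts in WT against 572, 637 and 817 in Dnmt3b-/- embryos. All 3 Dnmt3b-/- embryos lay above all WT embryos, and the lowest of them was well outside the narrow WT range. The means were 346 ± 12.9 (SD, n = 3) and 676 ± 127, a log2 fold change of 0.96 ± 0.16 (SE, adjusted p = 0.00284, edgeR's quasi-likelihood test) or 1.95-fold with a 95% interval from 1.51 to 2.52. Ifitm3 was called in all 16 alternative fits, at log2 fold changes between 0.78 and 1.15, and 4 of these fits placed it above a 2-fold change. In the fit reported here it lay just under that threshold, which 2.12% of tested genes passed upward and 3.78% downward and which 0 of the 8 tested PGC genes passed.

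Ifitm1 (chr7:140967429-140969827, plus strand), a neighbour of Ifitm3 in the same gene cluster, was not called. It read 2706, 3628 and 2638 normalized counts in WT embryos and 2758, 2794 and 4021 in Dnmt3b-/- embryos, so that each genotype had 2 close values and 1 high embryo. The log2 fold change was 0.09 ± 0.18 (SE, adjusted p = 0.709, edgeR's quasi-likelihood test), between -0.31 and 0.49, and -0.09 without Dnmt3b-/- embryo 3. Ifitm2 (chr7:140954837-140959686, minus strand), also in the cluster, read 4955, 4899.5 and 5237 against 5233, 4994 and 7058 normalized counts and was not called either (0.20 ± 0.13, adjusted p = 0.263). Dnmt3b-/- embryo 3 was the highest of the 6 for Ifitm1, Ifitm2 and Ifitm3 alike. Of 5 Ifitm genes other than the PGC genes, 3 were tested and 0 were called in edgeR's quasi-likelihood test, with DESeq2 or with limma, and 0 had an unadjusted p below 0.05. Whether reads were shared between these related genes was not tested.

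**Figure D2:**
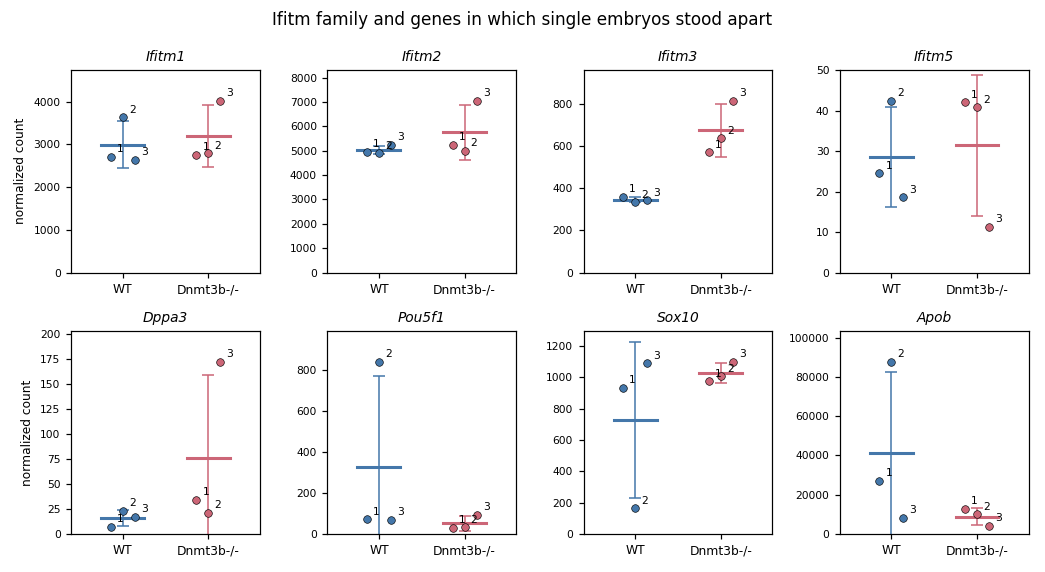
Normalized counts (y axes, each starting at 0) of 4 Ifitm genes (top row) and of 4 genes in which single embryos stood apart (bottom row), in WT (blue) and Dnmt3b-/- embryos (red). Points are single embryos with their replicate number, wide bars means and error bars SDs. Ifitm3 separates the genotypes, whereas WT embryo 2 stands apart for Pou5f1, Sox10 and Apob and Dnmt3b-/- embryo 3 for Dppa3.

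Because Ifitm3 is inducible by interferon, its promoter and the interferon response were described beside it. The interferon-stimulated response element, searched on both strands as GAAA, any 2 bases and GAAA again, was found in 3.44% of all promoters and, among the 7 PGC genes with a window, only in Ifitm3, where it starts 3 and 20 bases into the first exon. The 2 stretches of 26 bases are chr7:141010725-141010750 and chr7:141010708-141010733, minus strand, with the motif in capitals.
Ifitm3 first element: aaattcagGAAAAGGAAActtctgag
Ifitm3 second element: acttctgaGAAACCGAAActgccgca
Of 12 interferon response genes, 7 were tested and 0 were called in edgeR's quasi-likelihood test, with DESeq2 or with limma. At an unadjusted p below 0.05 stood Bst2 with edgeR, Bst2 and Ddx58 with DESeq2 and none with limma. The values of Bst2 were lower in the Dnmt3b-/- embryos (-0.95, adjusted p = 0.0849 with edgeR). The RNA sensor Ddx58 differed by 0.45 on the log2 scale (adjusted p = 0.133). Ddx58 was called higher once WT embryo 2 was left out. The median log2 fold change of the 7 genes was 0.44, and their list summed to between 7.25 and 11.7 FPKM in WT and between 8.44 and 8.58 FPKM in Dnmt3b-/- embryos. Across the 6 embryos the genes most like Ifitm3 by Pearson's r of log2 values were Ube2n (0.9991), Fam133b (0.9991) and Msl2 (0.9987), and 1394 genes had an r above 0.95, values that the difference between the genotypes enters.

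Per length of transcript, the PGC genes spanned a wide range of levels in WT embryos. Ifitm1 was the highest at a mean of 71.9 FPKM, followed by Alpl (18.2), Kitl (12.7), Ifitm3 (11.1) and Kit (5.84). Below these came Tfap2c (2.88) and Prdm1 (2.66), whose WT ranges overlapped, and then Dnd1 (0.494) and Nanos3 (0.168), whose WT ranges also overlapped. Prdm14 was the lowest at 0.0337 FPKM, against a median of 0.794 FPKM for all genes of the table. The order thus placed the signalling and surface molecules, which somatic cells of the embryo also make, above Dnd1, Nanos3 and Prdm14. In Dnmt3b-/- embryos Ifitm3 reached 21.7 FPKM and so stood above Alpl (15.4) and Kitl (13).

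The later germline transcripts were set beside these genes because they are normally made by germ cells that descend from PGCs. This list held 10 genes, partly named by the study on these samples and so no independent evidence of its direction. All 10 were tested, 9 rose and 0 fell (edgeR's quasi-likelihood test, also 0 at an unadjusted p below 0.05, with DESeq2 and with limma), with a median log2 fold change of 4.89. Among all tested genes, 17.6% were called higher and 18.1% lower. Hormad1, Mael, Sycp1 and Sycp2 had at most 11 raw reads in any WT embryo and passed the count minimum only through the Dnmt3b-/- embryos. The count of rises and the median include these genes. Ddx4, the germ cell RNA helicase, read 42.8, 161 and 104 normalized counts in WT and 907, 857 and 1005 in Dnmt3b-/- embryos. Dazl, an RNA-binding regulator of germ cell translation, read 15.1, 12.6 and 4.42 in WT and 325, 94.5 and 282 in Dnmt3b-/- embryos. Both separated the genotypes completely, at log2 fold changes of 3.19 ± 0.40 (SE, adjusted p = 0.00104) and 4.44 ± 0.59 (adjusted p = 0.00134).

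Mael and Sycp1, the genes whose promoters are shown above, were nearly silent in WT embryos. Mael read 6.34, 0 and 7.96 normalized counts in WT and 426, 679 and 558 in Dnmt3b-/- embryos, and Sycp1 read 1.58, 5.74 and 4.42 against 1013, 693 and 746. Sycp3, the synaptonemal complex gene that was not called, differed by 1.36 (adjusted p = 0.181) and was called once WT embryo 2 was left out. Its 95% interval ran from 0.808-fold to 8.21-fold. The smallest called rise was that of Tdrd1, 3.39-fold with a lower 95% limit of 2.53-fold. The upper limits of Prdm1, Tfap2c, Kit, Kitl, Alpl and Ifitm1 lay below that value, as they lay below 2-fold. The upper limit of Ifitm3, 2.52-fold, could not be set apart from it, and that of Dnd1 reached beyond it, to 2.98-fold. The intervals of Prdm14 and Nanos3 from the fit without the filter were wide enough to include it. The Tdrd1 limit was taken among called genes only, without Sycp3, from a list partly named on these samples. It is therefore a description and no test. Somatic cells also make the transcripts of Prdm1, Tfap2c, Kit, Kitl, Alpl and Ifitm1, and the number of germ cells was not tested.

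**Figure D3:**
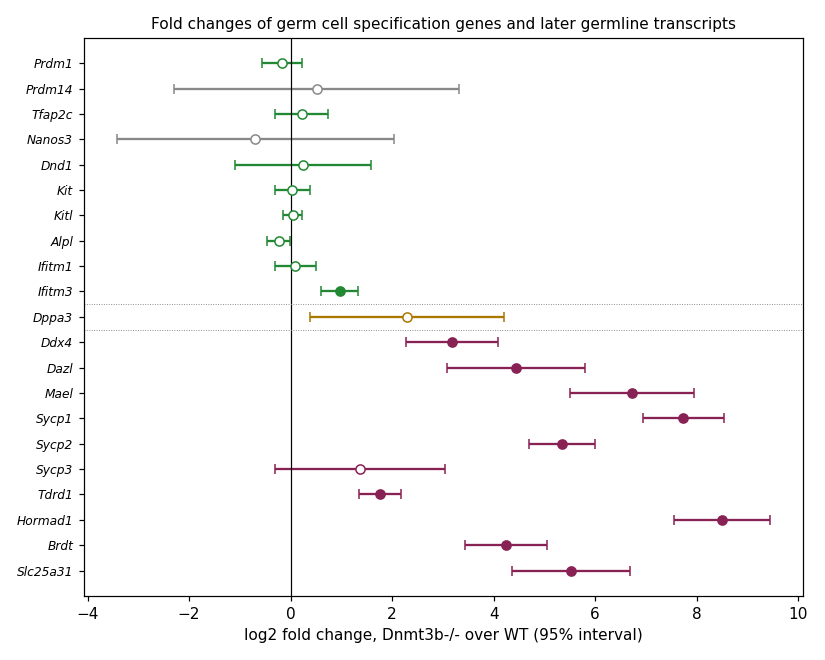
Log2 fold changes of Dnmt3b-/- over WT embryos (x axis) with 95% intervals for the 10 PGC genes (green, or grey for Prdm14 and Nanos3, which were fitted without the count filter), Dppa3 (gold) and 10 later germline transcripts (purple). Filled points were called at an adjusted p below 0.05. Tested PGC genes other than Ifitm3 lie around 0, whereas 9 later germline transcripts lie at 1.76 or above. The position of Hormad1, which had at most 2 reads in each WT embryo, depends on the fit, and its rise is at least 172-fold against a limit of 3 counts per library.

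Dppa3 (Stella), a maternal and PGC protein that guards DNA methylation in the zygote and is used to mark PGCs at this stage, is not among the 10 genes and was described beside them. Its raw counts were 9, 20 and 19 in WT against 34, 18 and 152 in Dnmt3b-/- embryos. Dnmt3b-/- embryo 3 stood far above the rest, embryo 1 lay above the WT range and embryo 2 inside it. The log2 fold change of 2.29 ± 0.84 (SE) was not called (adjusted p = 0.0637, edgeR's quasi-likelihood test), was called with DESeq2 (adjusted p = 0.0137), and dropped to 0.86 (adjusted p = 0.315) without Dnmt3b-/- embryo 3. Without Dnmt3b-/- embryo 2 it was 2.73 and called (adjusted p = 0.0431). Dnmt3b-/- embryo 3 also had the highest Prdm14, at 12 reads, and the lowest Nanos3, at 0.

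To set both kinds of gene on 1 scale, the levels of Prdm14, Nanos3 and Dppa3, the transcripts most restricted to germ cells at this stage, were summed in each embryo and compared with the sum of the 10 later germline transcripts. The restricted sum was 0.532, 0.694 and 0.57 FPKM in WT embryos and 0.951, 0.803 and 4.48 FPKM in Dnmt3b-/- embryos. The later sum was 1.32, 2.56 and 2.04 FPKM in WT and 36.5, 35.7 and 37.1 FPKM in Dnmt3b-/- embryos. The later sum separated the genotypes widely and was nearly equal in the 3 Dnmt3b-/- embryos. The restricted sum separated them narrowly, with Dnmt3b-/- embryo 2 and WT embryo 3 at 29 raw reads each. The later transcripts exceeded the restricted ones by a factor of 2.48, 3.68 and 3.59 in WT and of 38.4, 44.5 and 8.27 in Dnmt3b-/- embryos. On the log2 scale the ratio was 1.68 ± 0.32 (SD, n = 3) in WT and 4.60 ± 1.34 in Dnmt3b-/- embryos, a difference of 2.92 with no overlap between the genotypes. Since the later list was partly named by the study on these samples, this direction and separation are no independent evidence. Of the reads behind the restricted sum, Prdm14 and Nanos3 gave 17 of 26, 7 of 27 and 10 of 29 in WT and 3 of 37, 11 of 29 and 12 of 164 in Dnmt3b-/- embryos, the remainder being Dppa3. Whether Dppa3 follows the number of germ cells in Dnmt3b-/- embryos was not tested, and no ratio without Dppa3 was computed.

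**Figure D4:**
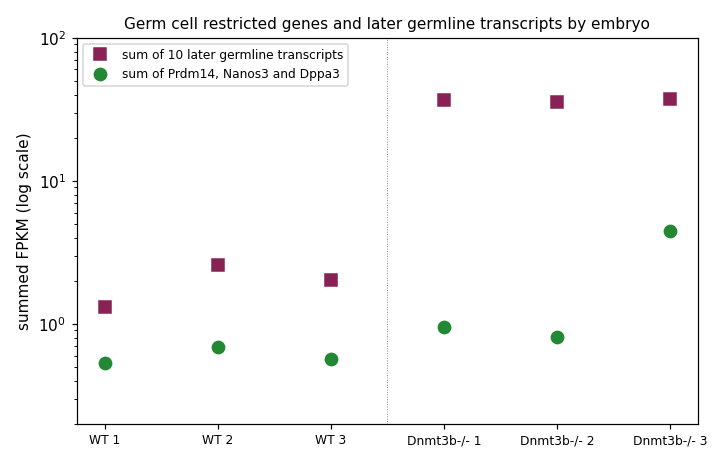
Summed levels in FPKM (y axis, log scale) of 10 later germline transcripts (squares) and of Prdm14, Nanos3 and Dppa3 (circles) in each of the 6 embryos (x axis). The squares lie between 1.32 and 2.56 in WT and between 35.7 and 37.1 in Dnmt3b-/- embryos, and the circles between 0.532 and 0.694 in WT and at 0.951, 0.803 and 4.48 in Dnmt3b-/- embryos.

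Genes that act around the PGC genes were described from lists. The counts of each list stand beside 17.6% called higher and 18.1% called lower among all tested genes. Of 12 genes of the inducing signals, 6 rose and 0 fell, all receptors or transducers of BMP signalling. Bmpr1a changed by 0.49 ± 0.09 (SE, adjusted p = 0.00434) and Smad4 by 0.39 ± 0.06 (adjusted p = 0.00295, edgeR's quasi-likelihood test), with Bmpr2, Acvr1, Smad1 and Smad5 as the others. The ligands that induce PGCs were not called. Bmp4 differed by 0.07 (adjusted p = 0.753) and Bmp2 by 0.05 (adjusted p = 0.814) on the log2 scale, and T, the mesodermal factor downstream of WNT in PGC induction, by 0.47 (adjusted p = 0.122). T was called higher with DESeq2, without WT embryo 2, and without both WT embryo 2 and Dnmt3b-/- embryo 3. The count of 0 falling genes became 1, Ctnnb1, at an unadjusted p below 0.05 and with DESeq2, and the GC and length correction left 3 rising genes, Acvr1, Smad1 and Smad4.

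Among 10 pluripotency genes shared with PGCs, 9 were tested, 1 rose and 1 fell. Dppa4 rose from 5.83 ± 5.10 to 41.2 ± 4.35 normalized counts (SD, n = 3; adjusted p = 0.011), and Sox2, also a gene of the neural tube, fell by 0.48 on the log2 scale (adjusted p = 0.00496), a call that was lost with the GC and length correction. Dppa4 had 2, 10 and 5 raw reads in the WT embryos and passed the count minimum only through the Dnmt3b-/- embryos. It was not tested at a minimum of 50 counts. Pou5f1, which PGCs keep on while somatic cells lose it, read 71.3, 839 and 69.0 normalized counts in WT and 29.1, 32.7 and 94.1 in Dnmt3b-/- embryos (adjusted p = 0.0739), and was called lower without WT embryo 1, without WT embryo 3, or without both WT embryo 2 and Dnmt3b-/- embryo 3. Nanog differed by -0.51 (adjusted p = 0.487).

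Of 8 chromatin factors that work with the PGC regulators, 3 rose, namely Prmt5, a partner of Prdm1, with 0.35 (adjusted p = 0.00421), Tet2 with 0.59 and Uhrf1 with 0.54, and 1 fell, the H3K9 methyltransferase gene Ehmt2 with -0.69 (adjusted p = 0.000873). Cbfa2t2, the co-repressor of Prdm14, differed by -0.18 (adjusted p = 0.181). Of 13 genes of PGC migration and survival, 3 rose and 4 fell, beside 17.6% higher and 18.1% lower among all tested genes. The chemokine receptor Cxcr4 rose by 0.55 (adjusted p = 0.0281), while its ligand Cxcl12 differed by 0.07 (adjusted p = 0.81). Ror2, the Wnt5a receptor used by migrating PGCs, changed by -0.88 (adjusted p = 0.000859) and Bax, the effector of PGC death, by -0.52 (adjusted p = 0.00505). Cxcr4 was not called without WT embryo 1, WT embryo 2, Dnmt3b-/- embryo 2 or Dnmt3b-/- embryo 3. With the GC and length correction, 0 of these 13 genes rose and 2 fell, Wnt5a and Fut4, so that Ror2 and Bax lost their calls, as did Ehmt2.

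Other cell types that express PGC genes were checked with their markers. Of 9 haematopoietic markers, relevant to Kit, 7 were tested and 1 fell, Itga2b (adjusted p = 0.0281), and the list summed to 23.1 to 26.7 FPKM in WT and 25 to 27 FPKM in Dnmt3b-/- embryos. Lmo2 alone gave 15.6, 13.7 and 15.1 FPKM in WT and 17.4, 16.9 and 19.5 FPKM in Dnmt3b-/- embryos. The sums therefore mostly reflect Lmo2 and not the other markers. Lmo2 was called higher with DESeq2 and with the GC and length correction, but not in the fit reported. The call of Itga2b was lost with the replicate block and with the GC and length correction. It was also lost without WT embryo 1, WT embryo 2, Dnmt3b-/- embryo 2 or Dnmt3b-/- embryo 3. Of 9 neural crest and surface ectoderm markers, relevant to Kit and Tfap2c, Sox9 rose and Krt8 and Krt18, epithelial keratin genes, fell. The list summed to 266 to 411 FPKM in WT and 153 to 217 FPKM in Dnmt3b-/- embryos, and Krt8 and Krt18 made up most of each sum. The other 7 markers summed to 21.1, 12.7 and 20.9 FPKM in WT and 21.7, 22.7 and 26.8 FPKM in Dnmt3b-/- embryos, and the median log2 fold change of the list was 0.12. Of 10 trophoblast and decidual markers, relevant to Tfap2c, Tpbpa, Prl3d1, Prl2c2, Syna, Synb and Prl8a2 had no read in any of the 6 embryos, 3 were tested and 0 were called in edgeR's quasi-likelihood test, with DESeq2 or with limma. At an unadjusted p below 0.05 stood Elf5 with edgeR and limma, and Elf5 and Ascl2 with DESeq2. Of 9 extraembryonic endoderm markers 1 fell, Amn (adjusted p = 0.0429), a call lost with limma, with the GC and length correction, and without WT embryo 1, WT embryo 2, Dnmt3b-/- embryo 2 or Dnmt3b-/- embryo 3. The replicate block called 3 of them lower, Apob, Amn and Cubn. Their sums were 374, 1120 and 175 FPKM in WT and 404, 239 and 112 FPKM in Dnmt3b-/- embryos. Of 5 gut endoderm markers, relevant to Prdm1, Shh rose (0.83, adjusted p = 0.0118), and the list summed to 44.7 to 83.5 FPKM in WT and 51.1 to 57.7 FPKM in Dnmt3b-/- embryos. Cldn6 made up most of each of these sums. The part of these cell types in the levels of the PGC genes was not tested.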

How the data were processed

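Whole E8.5 embryos were sequenced from total RNA after Ribo-Zero Gold depletion with the TruSeq Stranded kit (paired ends). The authors mapped reads to mm10 with TopHat2 2.0.12 and counted reads over RefSeq exons with HTSeq 0.6.0, giving the deposited raw counts per gene used here; the strand setting was not given in the sources used here. The deposited normalized counts, fold changes and adjusted p-values of the authors' DESeq2 1.4.5 run were not used, and the bisulfite libraries of the series were not analysed here.

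Groups followed the labels, 3 WT and 3 Dnmt3b-/- embryos. Counts were fitted in R 4.3.3 with edgeR 4.0.16 (TMM, glmQLFit, glmQLFTest), keeping genes whose mean reached 10 counts and adjusting over 15114 genes. On simulated data with 200 of 14978 genes changed, the procedure recovered 87.8% of 4-fold and 61.2% of 2-fold changes and called 0.0744% of unchanged genes. A gene that was not called can therefore still have changed. In the data 35.7% of tested genes were called, a far larger share than was changed in the simulation, so these rates need not hold for them. The SE was derived from the fold change and the F statistic, and intervals cover 95%. FPKM was computed from raw counts, TMM-scaled library size and RefSeq exon length (99.2% of the 24065 genes matched). Intervals and detection limits cover counting error and embryo spread only; 3 counts were taken as the limit for a count of 0.

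Alternatives were DESeq2 1.42.0, limma 3.58.1 (pseudocount 1), other scalings and filters, a GC and length correction, a replicate block and leaving out embryos. Leaving out WT embryo 2 and Dnmt3b-/- embryo 3 together was added after seeing the data. Named genes were all 10 PGC genes, up to 5 called or most abundant genes per list, Dppa3, Ddx4, Dazl, Mael and Sycp1; Sycp3, Tdrd1 and genes singled out by an alternative were named after their values were seen. The PGC genes and the lists were chosen with earlier results of these data known.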

Additional observations from a re-analysis of the deposited data

How the results depend on the processing

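Ifitm3 was called higher in all 16 alternative fits, and Prdm1 kept its direction in all 16 without a call. The number of PGC genes called higher was 1 in each fit. When a fold change above 2 was required it was 0 in the fit reported and 1, Ifitm3, in 4 of the 16 alternatives, those with the GC and length correction, with or without the replicate block, and those without Dnmt3b-/- embryo 1 or 2. The number called lower, 0 at first, was 1 with total counts as scaling (Alpl), with the GC and length correction with or without the replicate block (Kitl), and at an adjusted p below 0.1 (Alpl). The median log2 fold change of the tested PGC genes moved between -0.03 and 0.22 around 0.07. Signs of uncalled values turned as follows, and the cause was not tested. Total counts as scaling gave -0.043 for Kit and -0.04 for Kitl. The GC and length correction gave -0.028 for Kit, -0.521 for Kitl and 0.199 for Alpl, and with the replicate block -0.04, -0.519 and 0.186. Leaving out WT embryo 2 and Dnmt3b-/- embryo 3 gave -0.092 for Kit, -0.003 for Tfap2c and -0.591 for Prdm14. Prdm14 was -0.145 with limma and -0.078 with the replicate block. Leaving out single embryos gave -0.845 to 1.116 for Prdm14, -0.043 to 0.403 for Tfap2c, -1.887 to 0.313 for Nanos3, -0.643 to 0.575 for Dnd1, -0.05 to 0.18 for Kit, -0.009 to 0.087 for Kitl and -0.094 to 0.255 for Ifitm1; the sign turned without Dnmt3b-/- embryo 3 (Prdm14, Tfap2c, Kit, Ifitm1), embryo 2 (Dnd1) or embryo 1 (Kit), or without WT embryo 1 (Nanos3), 2 (Kit) or 3 (Kitl). Dnmt3b itself kept its direction in all 16 alternatives. It was not called without Dnmt3b-/- embryo 1 (-0.972), 2 (-1.058) or 3 (-1.079), or with the GC and length correction (-0.845; with the block -0.755). The ratio of later to restricted transcripts stayed at a log2 difference between 2.13 and 3.69.

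Over all genes, 2654 were called higher and 2741 lower. The GC and length correction left 1870 and 1591, with the replicate block 1418 and 1062, and total counts 2143 and 3200 with a median shift of -0.11. The deviations of embryos with the same number correlated at r = -0.049, -0.147 and -0.013, beside -0.083 to 0.135 for the other pairs. With 3 embryos per genotype these values cannot show whether such embryos shared a litter or batch. The replicate block left 2172 higher and 2239 lower calls and changed no call of a PGC gene. Leaving out WT embryo 1 left 1861 and 1909 calls, and leaving out Dnmt3b-/- embryo 2 left 1795 and 1791. A ratio to Nanos3 alone was not run because Dnmt3b-/- embryo 3 had 0 reads. Depth limits Prdm14 and Nanos3, with 0 to 15 reads per embryo.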
